A study of Mus musculus with 8 samples.

Results

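Interferon-stimulated antiviral genes were followed in mouse neutrophils that had migrated into air pouches after injection of lipopolysaccharide (LPS), with and without the small GTPase Arf6. The group was given as a list of 47 genes, and each gene was read from the probe set that names it alone, taking the probe set with the highest mean over the 8 arrays where a gene had several. Of the 47 genes, 43 had such a probe set, and these are the genes described here among 13296 genes tested. Oas1a, Dtx3l and Ifi47 were named only on probe sets shared with another gene, and no probe set was named for Ifi44. All 43 passed the filter on dim probe sets.

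The samples were 3 arrays of Arf6 conditional knockout neutrophils (cKO, genotype flox+/+Cre+/+), 2 arrays of Cre control neutrophils (flox-/-Cre+/+) and 3 arrays of flox control neutrophils (flox+/+Cre-/-). Every mouse received LPS in the pouch, so no array shows the cells without it. Each array held 100 ng of total RNA from neutrophils pooled from 5 mice and enriched by negative selection, and the pools are the replicates. The promoter that drives Cre, the mouse strain and the age of the mice were not stated in the labels or design text used here. The source field of the samples names other genotypes than their titles and genotype labels do, and the titles and genotype labels were used.

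Interferons bound to their receptors activate receptor-bound kinases, among them TYK2, and a transcription factor complex that holds STAT2 and IRF9 then binds the interferon-stimulated response element (ISRE) of many promoters. The genes switched on in this way encode sensors of viral nucleic acid, further transcription factors, enzymes that degrade or alter RNA and nucleotides, and proteins that block the entry or assembly of viruses. LPS engages TLR4, which can induce type I interferon through the adaptor TRIF and the factor IRF3, so cells of an LPS exudate can show this program without a virus.

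The promoters of 5 genes named in the results below are shown. In Apobec3 and Isg15 all cKO pools lay below all control pools. That pattern held for 4.65% of the group and 2.25% of all probe sets. Neither gene passed against both controls (adjusted p = 0.239 and 0.447 by limma). Parp11 and Phf11c passed between the control lines, but not when any flox control pool was left out. Ifit1 followed the group closely. The sequences are those of RefSeq on GRCm38.p6, from 250 bases before to 50 after the annotated start, 5′ to 3′ on the strand of the gene. Capitals mark each match to the ISRE core, which is GAAA, any 2 bases and GAAA again. Both strands were searched, and a match on the opposite strand reads TTTC, any 2 bases and TTTC.
Apobec3: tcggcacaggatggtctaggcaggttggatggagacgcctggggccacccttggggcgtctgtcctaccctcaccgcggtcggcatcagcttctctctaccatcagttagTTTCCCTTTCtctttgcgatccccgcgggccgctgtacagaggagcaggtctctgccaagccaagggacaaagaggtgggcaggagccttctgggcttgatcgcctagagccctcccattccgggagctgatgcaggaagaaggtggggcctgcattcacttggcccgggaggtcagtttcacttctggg
Isg15: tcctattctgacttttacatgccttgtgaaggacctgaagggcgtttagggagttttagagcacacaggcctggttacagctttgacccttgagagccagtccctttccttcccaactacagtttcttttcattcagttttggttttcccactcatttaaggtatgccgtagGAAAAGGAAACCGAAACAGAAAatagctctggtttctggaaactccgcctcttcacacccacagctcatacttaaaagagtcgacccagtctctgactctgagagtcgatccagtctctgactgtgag
Ifit1: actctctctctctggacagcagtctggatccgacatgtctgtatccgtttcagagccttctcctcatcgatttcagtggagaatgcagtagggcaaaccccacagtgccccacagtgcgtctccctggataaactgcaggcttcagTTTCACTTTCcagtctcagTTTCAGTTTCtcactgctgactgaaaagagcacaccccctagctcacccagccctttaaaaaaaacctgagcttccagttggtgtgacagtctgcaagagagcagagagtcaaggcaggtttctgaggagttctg
Parp11: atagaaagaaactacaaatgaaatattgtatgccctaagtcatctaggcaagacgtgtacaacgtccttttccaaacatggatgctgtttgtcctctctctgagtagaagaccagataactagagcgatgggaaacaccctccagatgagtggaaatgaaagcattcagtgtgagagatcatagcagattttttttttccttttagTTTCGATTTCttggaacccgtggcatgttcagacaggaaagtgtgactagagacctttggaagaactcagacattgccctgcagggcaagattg
Phf11c: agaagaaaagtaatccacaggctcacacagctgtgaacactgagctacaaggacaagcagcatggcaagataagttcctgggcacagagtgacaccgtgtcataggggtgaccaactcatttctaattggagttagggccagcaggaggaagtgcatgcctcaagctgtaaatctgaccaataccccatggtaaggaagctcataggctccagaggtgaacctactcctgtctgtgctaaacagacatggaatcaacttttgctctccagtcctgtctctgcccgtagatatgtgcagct
In Apobec3, at chr15:79892158-79892457 (+ strand), the match began 140 bases before the start, and the window of another annotated start of the gene had none. In Isg15, at chr4:156200769-156201068 (- strand), 3 overlapping matches made a single run that began 78 bases before the start. The matches of Ifit1, at chr19:34640639-34640938 (+ strand), were 2 in number and the first began 104 bases before the start. Parp11 had its match 44 bases before the start of the window shown, at chr6:127446590-127446889 (+ strand), and the window of its other annotated start had none. The letters of the core do not occur in the Phf11c window at chr14:59393463-59393762 (- strand).

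Promoter windows were found for 36 of the 47 genes, and 15 of these 36 genes (41.7%) held the ISRE core, against 3.99% of all 27018 genes with a window. The core of the gamma-activated site, TTCNNNGAA, which reads the same on both strands, was found in 10 of the 36 genes (27.8%), against 9.55% of all genes. Of 23 ISRE matches in windows of the listed genes, 3 overlapped such a site. Against both controls the median log2 fold change of the cKO was -0.24 for the 14 measured genes with a match and -0.22 for the 18 measured genes whose windows had none. A match is a run of letters and not a shown binding site.

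The arrays were alike in overall level, with medians between 5.41 and 5.48 (log2). Arf6 read 6.49, 6.06 and 6.20 in the cKO pools, 7.79 and 7.86 in the Cre control pools and 8.19, 8.20 and 7.68 in the flox control pools, so its levels followed the titles. Sex-linked transcripts set 2 pools apart: Eif2s3y was at 4.08 in cKO pool 1, with every other array at 8.66 or above, and Xist was at 5.46 in flox control pool 1, with every other array at 7.84 or above. Results are also given without these 2 pools. Of 10 neutrophil markers, Ly6g averaged 10.87 in the cKO, 10.73 in the Cre control and 11.21 in the flox control, and Camp, a granule gene of early neutrophil stages, averaged 5.71 in the cKO, 5.28 in the Cre control and 6.12 in the flox control. The other 8 neutrophil markers averaged above 12 in every group. Between the control lines 9 of the 10 were lower in the Cre control, 3 of them at an unadjusted p under 0.05 in limma, where 7.86% of all probe sets were. The mean of 11 monocyte and macrophage markers lay between 8.26 and 8.44 in the cKO, 8.61 and 8.64 in the Cre control, and 8.16 and 8.51 in the flox control. Of these 11 markers 9 were higher and 2 lower in the Cre control than in the flox control (median 0.27). In the cKO 9 were lower and 2 higher than in the Cre control (median -0.30). At an unadjusted p under 0.05 in limma these were 3 higher (6.85% of all probe sets) and 3 lower (5.96%). The mean of 10 T and NK cell markers lay between 6.08 and 6.22 in the cKO, 6.24 and 6.45 in the Cre control, and 5.73 and 5.96 in the flox control, with Cd4 and Klrb1c below the median of all values on every array. Of the 8 T and NK markers tested, 6 were higher in the Cre control than in the flox control at an unadjusted p under 0.05, and the median difference of the 8 was 0.76. The mean of 6 dendritic cell markers lay between 7.97 and 8.12 in the cKO, 8.03 and 8.11 in the Cre control, and 7.70 and 7.96 in the flox control. Of these 6 markers, 4 were higher and 2 lower in the Cre control than in the flox control, with a median difference of 0.24. H2-Ab1 differed by 0.70, Ccr7 by 1.00 and Cd209a by -0.46. Of 5 markers of plasmacytoid dendritic cells, Siglech, Ccr9 and Spib were below the median of all values on every array. Tcf4 and Bst2 were above it. Tcf4 averaged 7.71 in the cKO, 8.30 in the Cre control and 7.78 in the flox control. Bst2 averaged 8.24, 8.31 and 8.66 in the same groups. Tcf4 was thus highest in the Cre control and Bst2 in the flox control. The part of these cell types in the results below was not tested, and in bulk pools fewer cells of a type and less RNA per cell cannot be told apart.

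The cKO pools differed from each other in these genes together, more than the pools of either control did. To set genes side by side, each gene's level in an array was taken as its difference from the gene's own mean over the 8 arrays. In the cKO the median of this difference over the 43 genes was -0.14 in pool 1, -0.40 in pool 2 and 0.08 in pool 3. It was 0.19 and 0.17 in the Cre control pools, and 0.06, 0.00 and -0.08 in flox control pools 1, 2 and 3. For all 14002 probe sets tested the same median stayed between -0.02 and 0.03 in every array.

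**Figure D1:**
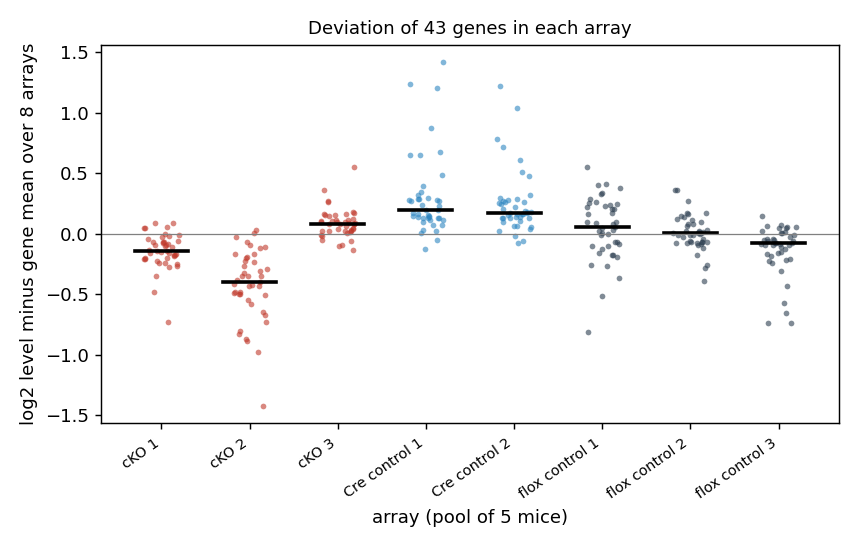
Deviation of each of 43 interferon-stimulated genes (points) from its own mean over the 8 arrays, in log2 units, for each pool, with the median as a black line. The medians run from -0.40 in cKO pool 2 to 0.19 in Cre control pool 1, and the 3 cKO pools are farther apart than the pools of either control.

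The second cKO pool was the lowest of all 8 arrays for 33 of the 43 genes. Within the cKO it was below pool 3 for 42 genes, with a median difference of -0.45, while 47.1% of all probe sets tested were lower in pool 2 than in pool 3. Pool 3 of the cKO was the highest cKO pool for 41 of the 43 genes. A Cre control pool was the highest of the 8 arrays for 29 genes in all, 16 in pool 1 and 13 in pool 2. These counts of highest and lowest arrays were made for the 43 genes alone, and the Cre control holds 2 of the 8 arrays. The mean level of the 43 genes was 11.31 ± 0.26 in the cKO (SD, n = 3), 11.74 ± 0.03 in the Cre control (SD, n = 2) and 11.44 ± 0.09 in the flox control (SD, n = 3). The cKO pools spanned 11.04 to 11.55, a range that holds all 3 flox control pools (11.33 to 11.51) and lies below both Cre control pools (11.72 and 11.77).

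The spread between pools of a gene was wider in the cKO than in either control. The median SD of the 43 genes was 0.24 within the cKO, 0.04 within the Cre control and 0.13 within the flox control. For all probe sets tested the median SD was 0.15 within the cKO, 0.10 within the Cre control and 0.17 within the flox control. The SDs of the Cre control rest on 2 pools.

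**Figure D2:**
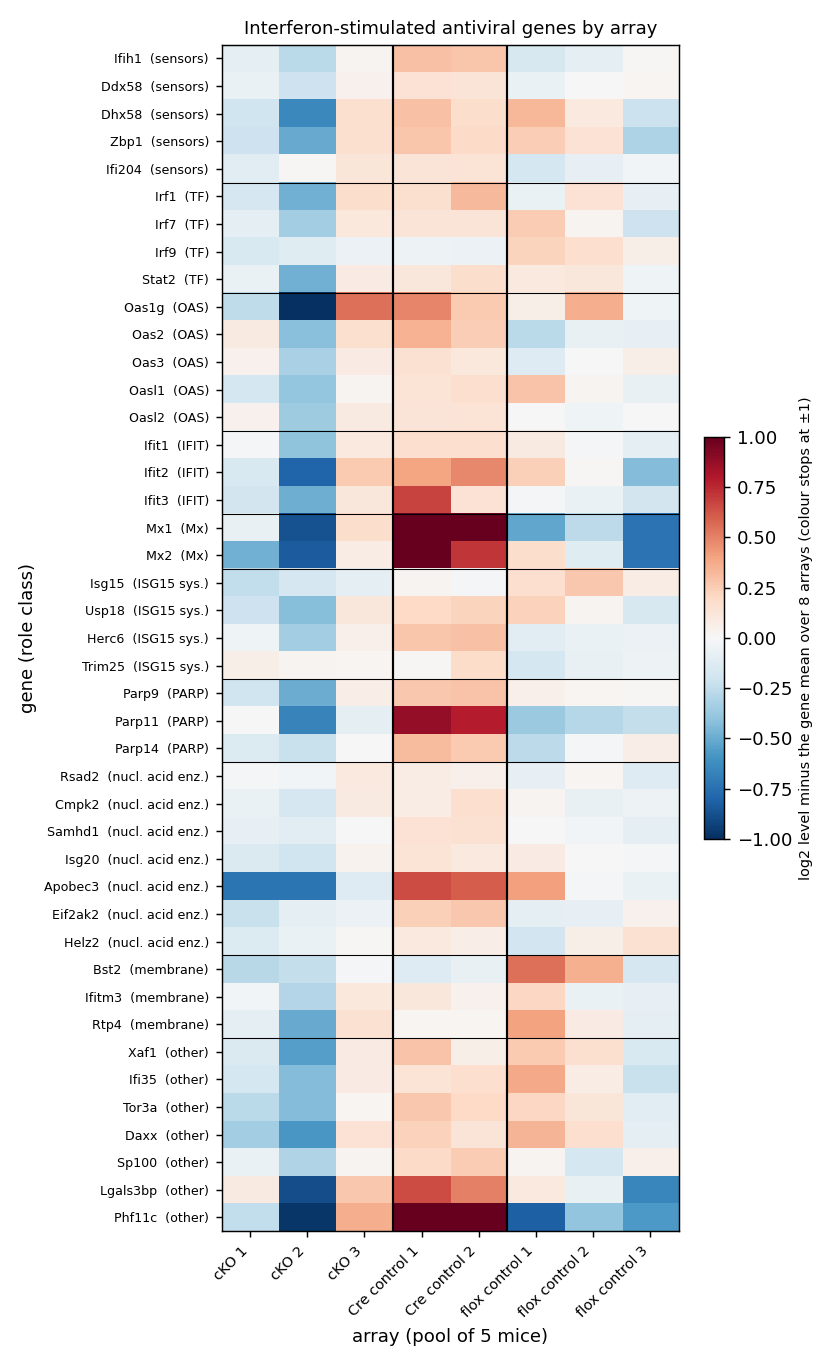
Level of each of 43 genes (rows, by role) in each pool (columns, with lines between the groups) as the difference from the gene's own mean over the 8 arrays, in log2 units, red above and blue below, with colours that stop at 1 unit. The second cKO column is blue in nearly every row, and the columns of the Cre control are red in nearly every row, with Irf9 and Bst2 blue in both.

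The cKO was first set against the average of the Cre and flox controls, which asks how the cKO differs from the controls as a whole. Of the 43 genes 41 had a log2 fold change below 0, where 46.6% of all probe sets tested did, and the exceptions were Trim25 and Rsad2. The median was -0.25, against 0.01 over all probe sets tested. No member passed the threshold in limma (adjusted p under 0.05 over all 14002 probe sets), where 0.00714% of all probe sets passed, which was Arf6 alone (adjusted p = 0.0122 by limma). The count at an unadjusted p under 0.05 was 11 genes, all on the lower side, where 4.26% of all probe sets were. None were on the higher side, where 5.26% of all probe sets were. Without cKO pool 2 the median was -0.14 and the unadjusted count 2. That count was 22 without cKO pool 3, 17 without flox control pool 3, 6 without cKO pool 1 or flox control pool 2, 5 without Cre control pool 1, and 3 without the 2 pools set apart by sex-linked transcripts. The median was then -0.24. Here and below, counts with arrays left out are of members alone, without the share of all probe sets in the same fit.

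Apobec3, a cytidine deaminase that restricts retroviruses, had the smallest p of the group. It read 10.92, 10.92 and 11.52 in the cKO pools, 12.30 and 12.26 in the Cre control pools and 12.06, 11.64 and 11.59 in the flox control pools. All 3 cKO pools lay below all 5 control pools, with cKO pool 3 just under the lowest flox control pool. The difference on the log2 scale was -0.90, with an SE of 0.17 and a 95% interval from -1.28 to -0.52. This 1.87-fold lower level ranked 21 by p among all probe sets tested and did not pass (adjusted p = 0.239 by limma). Without cKO pool 3 it passed (log2 -1.10, adjusted p = 0.0388 by limma), and over all alternatives its adjusted p lay between 0.0388 and 0.962.

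Isg15, a ubiquitin-like protein that is attached to other proteins and is also secreted, was the only other gene with all cKO pools below all controls, where 2.25% of all probe sets were. It read 10.82, 10.90 and 10.97 in the cKO, 11.10 and 11.05 in the Cre control and 11.24, 11.33 and 11.14 in the flox control. The gap was small and the pools were tight, and the difference of -0.26 on the log2 scale had an SE of 0.10 and a 95% interval from -0.48 to -0.04 (adjusted p = 0.447 by limma). No member had all cKO pools above all controls, where 2.11% of all probe sets did. Unlike most of the group, Isg15 was higher in the flox control than in the Cre control.

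The other genes among the 8 smallest p values had overlapping pools and did not pass. Parp11, a mono-ADP-ribosyltransferase, read -0.52 (SE 0.15) and Parp9, the partner of the ubiquitin ligase Dtx3l, read -0.36 (SE 0.13). The dynamin-like GTPases Mx2 and Mx1 read -0.78 (SE 0.25) and -0.57 (SE 0.22). Tor3a, an interferon-responsive torsin ATPase of the endoplasmic reticulum, read -0.38 (SE 0.13) and Phf11c, a PHD finger gene, -0.65 (SE 0.25). Their adjusted p in limma lay between 0.369 and 0.462. For Parp11, Mx1 and Phf11c the Cre control stood apart and the cKO mean lay above the flox control mean, as given below. Without cKO pool 2 the values were -0.32 for Parp11, -0.22 for Parp9, -0.26 for Mx1 and -0.30 for Phf11c, each over 1.5 times smaller.

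The comparison with the flox control alone asks about mice that carry the floxed allele without Cre. Here 35 of the 43 genes were below 0, where 47.6% of all probe sets were, and the median was -0.10, against 0.01 over all probe sets. No member passed in limma, where 0.0429% of all probe sets passed, and the smallest adjusted p was 0.394. The count at an unadjusted p under 0.05 was 4 genes, all lower (3.98% of all probe sets) and none higher (4.28% of all probe sets): Apobec3 (-0.64, SE 0.19), Isg15 (-0.34, SE 0.11), Irf9 (-0.26, SE 0.10) and Bst2 (-0.43, SE 0.18). The direction of the group rested on cKO pool 2: without it 22 genes were below 0 and 21 above. Without cKO pool 3 the median was -0.21, with 39 genes below 0. The unadjusted count was 13 without cKO pool 3, 7 without flox control pool 3, and 2 without cKO pool 1, flox control pool 1 or flox control pool 2. Without the 2 pools set apart by sex-linked transcripts it was 0, with a median of -0.09.

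Irf9, a DNA-binding subunit of the interferon-activated complex with STAT2, read 11.61, 11.64 and 11.71 in the cKO, 11.71 and 11.71 in the Cre control and 11.98, 11.93 and 11.82 in the flox control. The flox control was the group that stood apart, above every pool of both Cre-carrying genotypes. Bst2 (tetherin), which holds budding virus at the cell surface and is also a marker of plasmacytoid dendritic cells, read 8.14, 8.18 and 8.39 in the cKO, 8.29 and 8.34 in the Cre control and 8.97, 8.77 and 8.25 in the flox control. Its pools overlapped, since flox control pool 3 lay among the cKO values. The others of the 8 smallest p values were Daxx, a nuclear body protein (-0.40, SE 0.19), Tor3a (-0.30, SE 0.14), Oasl1, a relative of the oligoadenylate synthetases (-0.26, SE 0.14), and Xaf1, a pro-apoptotic factor (-0.30, SE 0.18), with adjusted p between 0.631 and 0.706 in limma. Without cKO pool 2 the values were -0.24 for Daxx, -0.20 for Tor3a, -0.15 for Oasl1 and -0.12 for Xaf1, and Daxx was at -0.60 without cKO pool 3. Without flox control pool 1 Bst2 was at -0.28 and Oasl1 at -0.15. Without the 2 pools set apart by sex-linked transcripts Apobec3 was at -0.40, Bst2 at -0.23, Daxx at -0.26 and Oasl1 at -0.15.

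On the other side of 0, Trim25, the ubiquitin ligase that acts on RIG-I, had all cKO pools (11.41 to 11.44) above all flox control pools (11.21 to 11.33), where 5.93% of all probe sets did. The difference was 0.14 (SE 0.11) and the Cre control read 11.40 and 11.57. Below all flox control pools lay Apobec3, Irf9 and Isg15, 3 of 43 genes, where 6.31% of all probe sets did.

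The comparison with the Cre control asks about mice that carry Cre and no floxed allele. All 43 genes were below 0, where 48% of all probe sets were, and the median was -0.35, against 0.01 over all probe sets. No member passed in limma, where 0.0714% of all probe sets passed, and the smallest adjusted p was 0.0836. The count at an unadjusted p under 0.05 was 15 genes (5.96% of all probe sets were lower at that level) with none higher (7.51%), and in 32 of 43 genes all 3 cKO pools lay below both Cre control pools, where 16% of all probe sets did. The median was -0.23 without cKO pool 2. The unadjusted count was 26 without cKO pool 3 and 7 when Cre control pool 1 or pool 2 was left out. Without the 2 pools set apart by sex-linked transcripts the median was -0.36 and the count 13.

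The genes with the smallest p were Parp11 (log2 -1.09, SE 0.19, 2.12-fold lower, adjusted p = 0.0836 by limma), Apobec3 (-1.16, SE 0.21, 2.24-fold, 0.104), Phf11c (-1.61, SE 0.31, 3.04-fold, 0.12), Mx1 (-1.39, SE 0.27, 2.63-fold, 0.12) and Mx2 (-1.37, SE 0.31, 2.59-fold, 0.144). These 5 genes passed with array weights, which give less weight to arrays that depart from their group (adjusted p between 0.0213 and 0.0379 by limma). The share of all probe sets passing in that setting is not given here. Between the control lines array weights raised the calls over all probe sets too, so these 5 calls are not read as particular to the group. Next by p without array weights came Eif2ak2, the RNA-activated kinase PKR (-0.38, SE 0.12), Parp9 (-0.49, SE 0.16) and Ifih1, the RNA sensor MDA5 (-0.40, SE 0.13), with adjusted p of 0.243 to 0.249 by limma. Without cKO pool 3 Apobec3, Phf11c and Mx1 passed, with adjusted p between 0.0224 and 0.0411 by limma. The share of all probe sets passing without that pool is not given here, so these calls are not read as particular to the group.

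**Figure D3:**
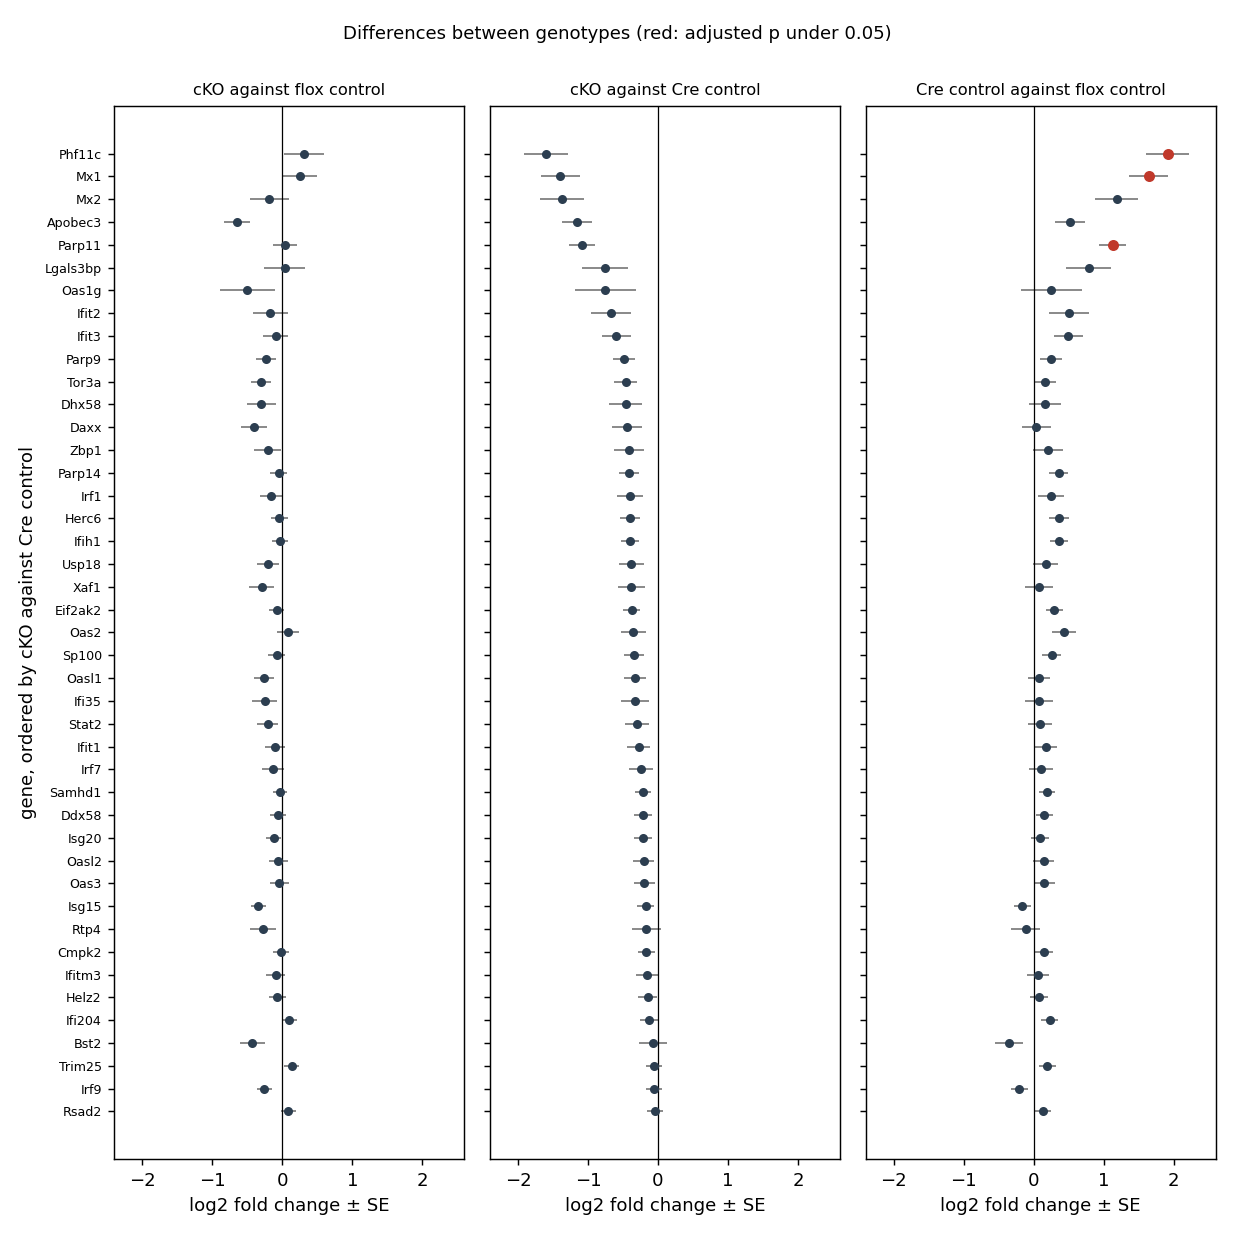
Log2 fold change with its SE for each of 43 genes in 3 comparisons, ordered by the comparison of the cKO with the Cre control, red where the adjusted p was under 0.05. All 43 points lie left of 0 for the cKO against the Cre control, 35 for the cKO against the flox control, and 39 lie right of 0 for the Cre control against the flox control, where Phf11c, Mx1 and Parp11 are red.

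The control lines themselves differed in this group, and the only members past the threshold in any comparison were found there. Of the 43 genes 39 were higher in the Cre control than in the flox control, where 49.2% of all probe sets were, with a median log2 fold change of 0.17 against -0.01 over all probe sets. Bst2, Irf9, Isg15 and Rtp4 were lower in the Cre control, 4 genes, where 50.8% of all probe sets were. Phf11c was 3.77-fold higher (log2 1.91, SE 0.31, adjusted p = 0.0402 by limma), Mx1 3.12-fold (1.64, SE 0.27, adjusted p = 0.0409) and Parp11 2.19-fold (1.13, SE 0.19, adjusted p = 0.0409). These are 3 of 43 genes, where 0.486% of all probe sets passed in either direction. In limma 12 members had an unadjusted p under 0.05, all higher, where 6.85% of all probe sets were, and none lower, where 7.86% were. These comparisons share arrays, so the values for the cKO against the Cre control are not separate evidence.

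The 3 calls depended on single arrays. None of the 3 genes passed without flox control pool 1, 2 or 3, without cKO pool 1, or without Cre control pool 1 or 2, and all 3 passed without cKO pool 2 or 3. None passed without the 2 pools set apart by sex-linked transcripts (adjusted p between 0.134 and 0.156 by limma), where the median of the 43 genes was 0.22. The unadjusted count was 4 without Cre control pool 1, 5 without Cre control pool 2, 6 without flox control pool 2 and 6 without those 2 pools. The highest adjusted p values came from leaving out Cre control pool 1 (0.343 to 0.354), where the lone remaining pool is assumed to vary like the other groups. The Cre control pools were above all flox control pools in 27 genes, where 15.3% of all probe sets were, and below in Irf9 and Isg15, where 17.4% were.

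Phf11c read 7.44, 6.71 and 8.05 in the cKO, 9.11 and 8.91 in the Cre control and 6.87, 7.30 and 7.11 in the flox control. Parp11 read 7.59, 6.92 and 7.50 in the cKO, 8.47 and 8.38 in the Cre control and 7.22, 7.31 and 7.35 in the flox control. In both genes the 2 Cre control pools stood above the 6 other arrays, and the cKO pools lay on both sides of the flox control. The share of all probe sets with the Cre control above all other arrays was not counted. Mx1, whose product blocks influenza virus in mice with an intact gene and which is defective in many laboratory strains, read 6.91, 6.11 and 7.16 in the cKO, 8.22 and 8.02 in the Cre control and 6.47, 6.72 and 6.25 in the flox control. Mx2 was also highest in the Cre control, with cKO and flox control pools overlapping: 7.99, 7.64 and 8.55 in the cKO, 9.68 and 9.19 in the Cre control and 8.65, 8.35 and 7.74 in the flox control. Its difference between the control lines was 1.19 (SE 0.31) and did not pass (adjusted p = 0.118 by limma). The others of the 8 smallest p values between the control lines were Ifih1 (0.37, SE 0.13), Herc6 (0.36, SE 0.14), Parp14 (0.36, SE 0.14) and Eif2ak2 (0.30, SE 0.12), with adjusted p between 0.232 and 0.293 in limma.

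**Figure D4:**
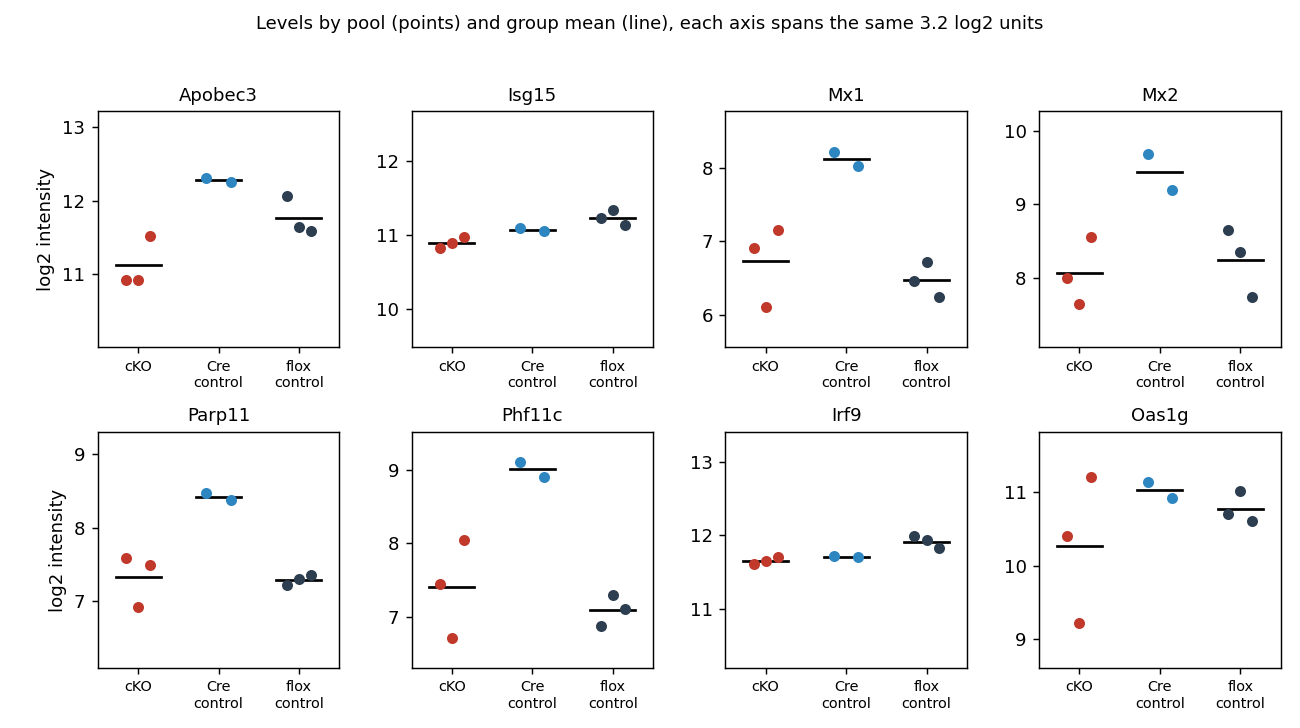
Log2 intensity of 8 genes in each pool (points) with the group mean (line), on axes of equal span. Apobec3 and Isg15 have all cKO points below all control points, Mx1, Mx2, Parp11 and Phf11c have the Cre control above the other groups, Irf9 is highest in the flox control, and Oas1g has the widest spread within the cKO.

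By role, the sensors of viral nucleic acid were all below 0 in the cKO against both controls (5 of 5, median -0.21). Ifih1 (MDA5, a sensor of long double-stranded RNA) read 12.73, 12.56 and 12.85 in the cKO, 13.11 and 13.10 in the Cre control and 12.67, 12.73 and 12.83 in the flox control. The cKO pools were thus below the Cre control and among the flox control. Ddx58 (RIG-I), the LGP2 gene Dhx58, the nucleic acid sensor Zbp1 and the DNA-binding p200 protein Ifi204 had all cKO pools below both Cre control pools too, and none of the 5 separated from the flox control. All cKO pools lay below both Cre control pools in 16% of all probe sets. Dhx58 had the lowest log2 fold change of the class against both controls (-0.38), and read 10.96, 10.51 and 11.32 in the cKO, 11.45 and 11.33 in the Cre control and 11.49, 11.25 and 10.94 in the flox control. Ifi204 has near copies, and its probes may read them too.

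Among the transcription factors, Irf7, the main amplifier of type I interferon transcription, read 12.82, 12.57 and 13.02 in the cKO, 13.04 and 13.05 in the Cre control and 13.17, 12.94 and 12.71 in the flox control. The cKO and flox control pools of Irf7 overlapped over most of their range. The class of Irf1, Irf7, Irf9 and Stat2 had a median of -0.22 against both controls, -0.18 against the flox control and -0.27 against the Cre control, with 4 of 4 genes below 0 each time. Stat2, the partner of IRF9 in the interferon-activated complex, averaged 11.84 ± 0.29 in the cKO (SD, n = 3), 12.14 ± 0.04 in the Cre control (SD, n = 2) and 12.05 ± 0.09 in the flox control (SD, n = 3). Irf1, an early factor downstream of interferon gamma, averaged 11.46 ± 0.33 in the cKO (SD, n = 3), 11.87 ± 0.12 in the Cre control (SD, n = 2) and 11.62 ± 0.13 in the flox control (SD, n = 3).

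The oligoadenylate synthetases make a messenger that activates RNase L. Oas1g had the largest spread of the group: 10.40, 9.22 and 11.20 in the cKO, 11.14 and 10.91 in the Cre control and 10.70, 11.01 and 10.61 in the flox control. Pools 1 and 2 of the cKO lay below all control pools, pool 2 by far the most, and pool 3 was the highest of all 8 arrays. Its SD within the cKO was 0.99 (n = 3), and its log2 fold change against both controls was -0.63 (SE 0.35). Oas1 genes are close copies, and their probes may read more than a single member. In the same comparison Oasl1 read -0.29, and Oas2, Oas3 and Oasl2 lay between -0.13 and -0.12. Oasl2 read 12.99, 12.59 and 13.03 in the cKO, 13.08 and 13.08 in the Cre control and 12.94, 12.90 and 12.95 in the flox control.

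The IFIT proteins bind viral RNA that lacks the host cap modification. Ifit1 read 13.34, 12.96 and 13.46 in the cKO, 13.53 and 13.53 in the Cre control and 13.45, 13.34 and 13.27 in the flox control. Only cKO pool 2 lay below the flox control pools. Ifit1, Ifit2 and Ifit3 had medians of -0.34 against both controls, -0.10 against the flox control and -0.59 against the Cre control. Ifit2 read 8.39, 7.74 and 8.80 in the cKO, 8.94 and 9.02 in the Cre control and 8.78, 8.55 and 8.11 in the flox control. The Cre control was the highest group in all 3 IFIT genes, with no overlap with the other groups. Of all probe sets, 15.3% had both Cre control pools above all flox control pools, and 16% had them above all cKO pools. The share with both was not counted.

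In the ISG15 system, Usp18 removes ISG15 from proteins and damps signalling at the interferon receptor, and Herc6 is the ligase that attaches ISG15 in the mouse. Usp18 read 12.84, 12.62 and 13.16 in the cKO, 13.24 and 13.27 in the Cre control and 13.28, 13.08 and 12.89 in the flox control, with cKO and flox control pools overlapping. Of the ADP-ribosyltransferase genes, Parp14 read 12.75, 12.67 and 12.89 in the cKO, 13.21 and 13.15 in the Cre control and 12.63, 12.88 and 12.96 in the flox control, the Cre control being the group apart.

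The enzymes of nucleotides and nucleic acids held 2 of the 3 genes with the smallest spread, Irf9 (pooled SD 0.06) being the other. Samhd1, which degrades deoxynucleotides, read 13.20, 13.17 and 13.29 in the cKO, 13.43 and 13.44 in the Cre control and 13.29, 13.26 and 13.20 in the flox control, with a pooled SD within groups of 0.05. Rsad2 (viperin), which makes a chain-terminating nucleotide, read 13.54, 13.53 and 13.65 in the cKO, 13.63 and 13.60 in the Cre control and 13.47, 13.57 and 13.43 in the flox control (pooled SD 0.06). Its cKO pools overlapped those of both controls. The log2 fold change against both controls was -0.09 for Cmpk2, a nucleotide kinase, -0.17 for Isg20, an exonuclease, and -0.11 for Helz2, a helicase.

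Among the membrane proteins, Ifitm3, which blocks fusion of viruses in endosomes, read 13.62, 13.35 and 13.75 in the cKO, 13.76 and 13.69 in the Cre control and 13.85, 13.58 and 13.57 in the flox control, and all 3 groups overlapped. Bst2, Ifitm3 and Rtp4, a chaperone of receptors that is induced by interferon, had a median of -0.15 against the Cre control, the smallest of the 10 role classes, and of -0.28 against the flox control. Rtp4 read 11.72, 11.30 and 11.96 in the cKO, 11.83 and 11.83 in the Cre control and 12.21, 11.89 and 11.72 in the flox control. Of the remaining genes, Sp100, a nuclear body protein, read 12.59, 12.36 and 12.69 in the cKO, 12.86 and 12.91 in the Cre control and 12.69, 12.48 and 12.71 in the flox control. Lgals3bp, a secreted glycoprotein, read 10.18, 9.20 and 10.35 in the cKO, 10.74 and 10.59 in the Cre control and 10.18, 10.02 and 9.44 in the flox control. Both had every Cre control pool above every other array, a pattern whose share over all probe sets was not counted.

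Most of the group moved together from pool to pool, and a minority did not. Over the 8 arrays the correlation of a gene with the mean of the other 42 genes had a median of 0.85, and 31 of the 43 genes were above 0.8, as were 3.57% of the other 13959 probe sets with the mean of the 43. After the group means were removed, so that only differences between pools of a genotype remained, the median was again 0.85 and 27 genes were above 0.8 (5.49% of other probe sets). These are descriptions over 8 arrays, each from a pool of its own, in which all genes of an array share its RNA, and cKO pool 2 is the point farthest from the rest. The closest followers over the 8 arrays were Parp9 (0.96), Ifit2 (0.96) and Ifit1 (0.95).

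Trim25 (0.16), Irf9 (0.17), Bst2 (0.23), Helz2 (0.34) and Isg15 (0.35) followed the group least over the 8 arrays. They fall in different places once group means are removed: Trim25 (-0.26), Eif2ak2 (-0.14) and Helz2 (-0.09) then ran against the group, while Irf9 (0.57) and Bst2 (0.53) followed it in part. Isg15 stood at 0.44, Parp14 at 0.25 and Ifi204 at 0.15. Irf9 and Isg15 were also the genes that were lower in both Cre-carrying genotypes than in the flox control, with no overlap of pools. Of all probe sets, 17.4% had the Cre control below all flox control pools, and 6.31% had the cKO below them. The share with both was not counted, so this is not read as particular to these genes.

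**Figure D5:**
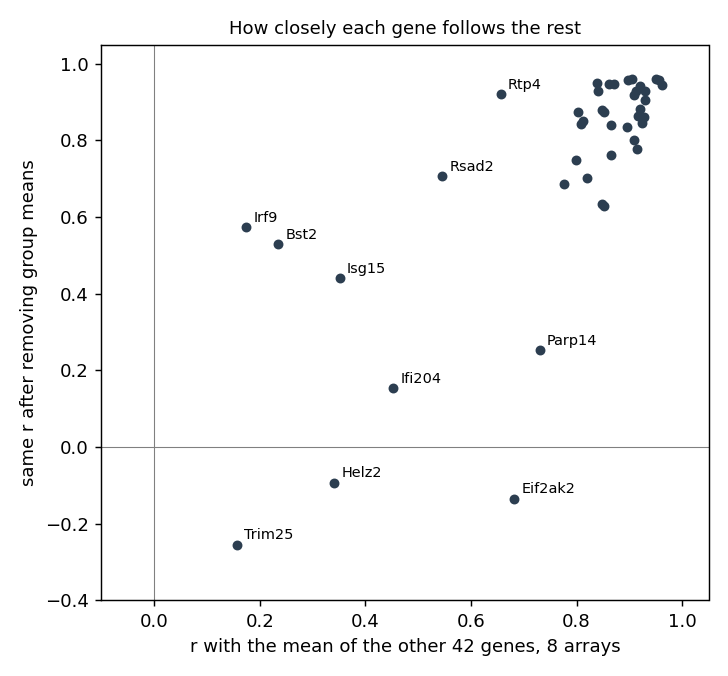
For each of 43 genes (points), the correlation with the mean of the other 42 genes over the 8 arrays (horizontal) and after removing group means (vertical). Most genes lie in the upper right above 0.8 on both axes, and Trim25, Irf9, Bst2, Helz2, Isg15, Ifi204, Eif2ak2 and Parp14 are among those that lie apart.

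Outside the group, the genes whose levels followed its mean most closely over the 8 arrays were the guanylate-binding protein Gbp5 (r = 0.99), the mitochondrial phosphatase Ppm1k (0.99), the DNA-binding p200 gene Ifi205 (0.99), Cybb, the catalytic subunit of the NADPH oxidase (0.98), and Dr1, a repressor of transcription (0.98). Cybb averaged 12.45 in the cKO, 13.04 in the Cre control and 12.64 in the flox control.

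Upstream of these genes, a list of 52 interferon ligands, receptors and signalling genes held 40 tested genes, and none passed in limma in any of the 4 comparisons. Against both controls 28 of the 40 were below 0 (median -0.11), where 46.6% of all probe sets were, and 6 were lower at an unadjusted p under 0.05, where 4.26% of all probe sets were. Against the flox control 22 were below 0 (median -0.04, 47.6% of all probe sets), with 7 lower (3.98%) and 1 higher (4.28%) at that level. Against the Cre control 31 were below 0 (median -0.17, 48% of all probe sets), with 8 lower (5.96%) and 2 higher (7.51%). Between the control lines 27 were higher in the Cre control (49.2% of all probe sets), with 9 higher (6.85%) and 4 lower (7.86%) at that level. Those with the smallest p against both controls were Ikbke, a kinase that activates IRF3 (-0.85, SE 0.25), the receptor kinase Tyk2 (-0.46, SE 0.14) and the phosphatase Ptpn1 (-0.36, SE 0.12), with adjusted p of 0.369 to 0.417. Ifnb1, which encodes interferon beta, averaged 3.70 in the cKO, 3.59 in the Cre control and 3.65 in the flox control and was too dim to be tested. Among interferon alpha genes that were tested, Ifna4 averaged 8.34 in the cKO, 8.84 in the Cre control and 7.61 in the flox control. Its difference between the control lines was 1.23 (SE 0.34, adjusted p = 0.13 by limma). Ifna1, Ifna12 and Ifna14 were also higher in the Cre control than in the flox control, by 0.37, 0.48 and 0.20, and did not pass.

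Ifnar1, a chain of the type I interferon receptor, averaged 11.20 in the cKO, 11.12 in the Cre control and 11.76 in the flox control. It was lower than in the flox control in both genotypes with Cre, by -0.56 (SE 0.11, adjusted p = 0.229) in the cKO and by -0.63 (SE 0.12, adjusted p = 0.0584) in the Cre control, which limma did not call. Ifng, the interferon of T and NK cells, ran the other way, with 5.96 in the cKO, 6.90 in the Cre control and 5.68 in the flox control. Its difference between the Cre control and the flox control was 1.22 (SE 0.26, adjusted p = 0.0818 by limma), beside the T and NK marker levels given above. Irf8 exceeded the flox control by 0.88 in the Cre control (SE 0.21, adjusted p = 0.106), beside the monocyte and macrophage marker levels. The remaining genes with the smallest p were Socs3 against the flox control (-0.42, SE 0.14) and Ifngr1 against the Cre control (0.45, SE 0.14).

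A second list held 53 other interferon-stimulated genes, of which 48 were tested and none passed in limma in any comparison. All 48 were below 0 against both controls (median -0.27, where 46.6% of all probe sets were below 0), 36 against the flox control (median -0.14, 47.6%) and 47 against the Cre control (median -0.46, 48%). In the Cre control 40 were higher than in the flox control (median 0.31), where 49.2% of all probe sets were. At an unadjusted p under 0.05, 7 were lower against both controls (4.26% of all probe sets), 2 against the flox control (3.98%, a share close to that of the list) and 26 against the Cre control (5.96%). Between the control lines 13 were higher (6.85%) and 1 lower (7.86%). Against both controls the smallest p values were those of Epsti1 (-0.61), Tdrd7 (-0.32) and Nmi (-0.53), with adjusted p between 0.369 and 0.454 in limma. Against the flox control they were those of Rnf114 (-0.33), Oas1c (-0.32) and Ifitm6 (-0.26), and against the Cre control those of Nlrc5 (-0.94), Phf11b (-1.05) and Phf11d (-1.09). Between the control lines they were those of Phf11a, Gm4951 (1.74, SE 0.38, adjusted p = 0.0837) and Phf11b. Phf11a averaged 8.15 in the cKO, 9.06 in the Cre control and 7.81 in the flox control, and Phf11b averaged 10.32 in the cKO, 11.37 in the Cre control and 10.24 in the flox control. The Cre control exceeded the flox control by 1.25 in Phf11a (SE 0.25, adjusted p = 0.0633 by limma) and by 1.13 in Phf11b (SE 0.28, adjusted p = 0.11). These genes are near copies of each other, and probes may read more than a single member.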

How the data were processed

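The deposited values are log2 probe set intensities from Affymetrix Mouse Gene 2.0 ST arrays, which the authors obtained with Affymetrix Expression Console by subtracting background and applying Robust Multiarray Analysis (RMA), per the series' design text. The software version and the genome build of the annotation are not given in the sources used. The design text states 3 pools per genotype, of which 2 were analysed here for the Cre control. A single gene symbol was given for 23521 of 34472 probe sets, and 14002 of these, those that exceeded the overall median (5.45) in at least 2 arrays, were tested. All 3 groups entered a single limma fit (limma 3.58.1, R 4.3.3) with moderated variance. Tests were two-sided, with Benjamini-Hochberg adjustment over all 14002 probe sets and a threshold of 0.05. The comparison with both controls weights the 2 control groups equally. The fit was tested on simulated data, in 20 runs with 200 probe sets changed in the cKO. Changes of log2 0.5 were recovered in 26.4% against both controls, 15.4% against the flox control and 5.9% against the Cre control. For changes of log2 1 these shares were 80.4%, 70.4% and 58.5%. A missing call thus says little about differences of 0.5 or less. The simulated spread was independent between probe sets, while most of these genes moved together. With pools as replicates, p-values measure the spread between these pools. Different kits are named in the design text and in the protocols of the labels for RNA extraction and labelling.

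The genes, the lists and the tests were chosen with earlier results of these data known, so the list is described by counts and medians beside those of all probe sets, without a test of its own. In each comparison the 8 members with the smallest p were named. Array by array values were also given for the member with the highest mean in each role class and for the genes with the largest and smallest spread. Of the lists of related genes, the 3 with the smallest p in each comparison were named, and the 5 genes most like the group. Trim25, Ifnb1 and further members given with values in the role classes were chosen after their values were seen. So were the interferon alpha genes and the dendritic cell markers given by name. Precision is limited by the number of arrays.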

Additional observations from a re-analysis of the deposited data

How the results depend on the processing

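No paired analysis was possible because the labels give the pools no replicate numbers shared between genotypes. The alternatives were no filter or a stricter filter on dim probe sets, quantile or median scaling, an intensity trend with a robust prior, array weights, a fit without the group not compared, the mean of all probe sets of a gene, and the omission of each array or of 2 pools together. Those 2 pools were cKO pool 1 and flox control pool 1, which sex-linked transcripts set apart. For both controls the fit without other groups is the fit of all 3 groups and was not run again. In these settings the 32 fold changes of named genes never changed sign (536 values). Stable signs were likely beforehand, because these genes were picked by smallest p and the settings share most arrays. Other members did change sign: against the flox control 35 of the 43 genes were below 0, and 22 without cKO pool 2. The median of the 43 genes stayed between -0.33 and -0.14 against both controls, -0.46 and -0.23 against the Cre control, and 0.14 and 0.22 between the control lines. Against the flox control it ran from -0.21 without cKO pool 3 to no shift without cKO pool 2. The count of members past the threshold against both controls was 0, and 0 to 1 when single arrays were left out. Against the Cre control it was 0, became 5 with array weights and was 0 to 3 when single arrays were left out. Between the control lines it was 3, with 0 to 3 when single arrays were left out, 1 with median scaling, 4 with array weights and 0 without those 2 pools. The cause of these changes was not tested. With array weights 819 of 14002 probe sets passed between the control lines, against 68 without. The other counts of this paragraph are of members alone.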

Other observations

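Probe sets shared between genes gave values for members that had none of their own. The probe set named for Ifi47 and Olfr56 averaged 11.44 in the cKO, 12.32 in the Cre control and 11.67 in the flox control, and Ifi47 encodes an interferon-inducible GTPase. Its single readings were 11.40, 10.97 and 11.96 in the cKO, 12.34 and 12.31 in the Cre control and 11.80, 11.69 and 11.51 in the flox control. The probe set of Dtx3l and Parp9 averaged 11.06 in the cKO, 11.36 in the Cre control and 11.19 in the flox control, and that of Oas1a and Oas1g 10.26, 10.69 and 10.52 in the same groups. In each of these 3 probe sets cKO pool 2 was the lowest array, and they entered no test.

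Sp100 had 3 further probe sets besides the one described, and 2 of them differed widely between the flox control pools. The first read 8.55, 8.27 and 8.58 in the cKO, 9.19 and 9.27 in the Cre control and 7.01, 8.25 and 9.20 in the flox control. The second read 7.19, 7.11 and 7.44 in the cKO, 8.51 and 8.31 in the Cre control and 5.99, 7.02 and 8.37 in the flox control. Flox control pool 1 was the lowest and flox control pool 3 the highest of its group on both, a range of over 2 log2 units, while the probe set described above spanned 12.48 to 12.71 in the flox control.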
